A study of Schizosaccharomyces pombe with 4 samples.

Results

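The 9 transcripts described here are reported to carry a DSR (determinant of selective removal), the RNA element through which Mmi1 recognises its targets in fission yeast: mei4, ssm4, spo5, mug4, mug5, mug8, mug9, mug10 and mug45. They were found by gene symbol among the 4880 genes named on the array, and each of the 9 had 1 spot with a value on all 4 arrays. The gene doa10 carries ssm4 as an older synonym in the annotation; it encodes a different protein and was not counted (its strain difference was −0.27 ± 0.36 SE, log2). The members are known from the literature, in part from the study that made these arrays, so the direction in which they moved is not independent evidence.

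The study compared Schizosaccharomyces pombe strain JV558, the wild type, with strain JV565, whose mmi1 gene is the temperature-sensitive allele mmi1-ts3. Each strain was grown from a single colony in rich liquid medium (YES) at 25 °C, and cells were taken during that growth and 30 min after a shift to 36 °C, where the allele is restrictive. PolyA RNA from the shifted cells and from the same strain at 25 °C was hybridised to the same array in 2 channels, with 2 arrays per strain, and each value below is the log2 ratio of 36 °C over 25 °C after the array's median was set to 0. Both strains therefore received the same heat shift, and no array set the 25 °C cells of one strain against those of the other, so a transcript already high in mmi1-ts3 at 25 °C would not show it here.

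Mmi1 is a nuclear RNA-binding protein of the YTH family. In vegetative cells it binds the repeated short motifs of the DSR and hands meiotic transcripts that escape silencing to polyadenylation factors and the nuclear exosome, which degrade them. On entry into meiosis Mei2 and the non-coding RNA meiRNA sequester Mmi1, and the transcripts accumulate.

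All 15 measured heat shock markers were positive in both strains (median 1.995 in wild-type cells, 2.12 in the mutant), which is the basis for reading a positive ratio as higher at 36 °C. That reading and the log base are taken from the values, not from a stated method. The titles put a code behind the strain name on replicate 2 of both strains and not on replicate 1, and the 2 resulting pairs of arrays are called the coded and uncoded sets. Across 4771 genes the arrays of the 2 strains correlated at r = 0.907 within the uncoded set and 0.873 within the coded set, against 0.774 for the 2 wild-type arrays and 0.868 for the 2 mmi1-ts3 arrays. The mmi1 transcript itself read −0.24 and 1.01 in wild-type cells and 0.23 and 0.66 in the mutant, a strain difference of 0.06 ± 0.46 (SE). An allele that makes the protein temperature-sensitive need not change its own transcript, so this value is no check of the labels.

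In mmi1-ts3, 6 of the 9 DSR transcripts rose after the shift (mug8, mug9, ssm4, spo5, mug10 and mug45), against 14.9% of all genes tested. In the wild type 1 rose (mug8) and 1 fell (mug45), against 13.5% and 14.5% of all genes. A transcript is said to rise or fall where its mean ratio differed from 0 at an adjusted p under 0.05 (limma, Benjamini-Hochberg over all genes). Of the 9, mug9, mug8 and mug45 stood furthest apart between the strains and ended 7.23-fold, 4.98-fold and 3.25-fold above their wild-type response. The differences of ssm4, spo5 and mug10 were 2.05-fold, 2.01-fold and 1.72-fold. Those of mei4, mug4 and mug5 were within 0.5 of 0 on the log2 scale. No gene passed the test of the strain difference over all 4771 genes tested (limma, Benjamini-Hochberg adjusted p under 0.05, 0% called in either direction), and so none of the 9 did (49 genes on the higher and 41 on the lower side had an unadjusted p under 0.05).

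**Figure D1:**
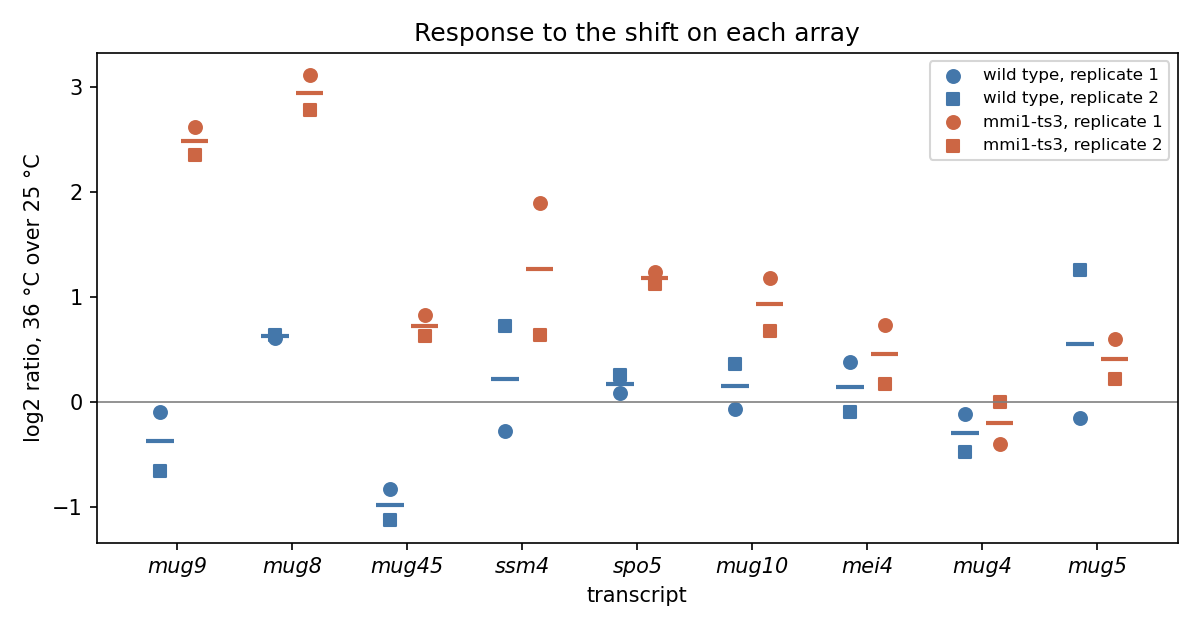
Log2 ratio of 36 °C over 25 °C for each of the 9 DSR transcripts on each array, with circles for replicate 1, squares for replicate 2 and bars for the mean of the 2 arrays of a strain. The mmi1-ts3 points of mug9, mug8, mug45, spo5 and mug10 lie above both wild-type points, and those of ssm4, mei4, mug4 and mug5 overlap them.

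The letters mug stand for meiotically upregulated gene, a name given to genes whose transcripts rise during meiosis. For mug9 the ratio was −0.09 and −0.65 in wild-type cells and 2.62 and 2.35 in the mutant. Against 25 °C cells of the same strain, the wild-type mean was slightly below 0 and did not pass the test (−0.37, adjusted p = 0.235, limma). In mmi1-ts3 the transcript rose 5.59-fold over the 25 °C cells of that strain. The lowest mmi1-ts3 ratio lay 5.44-fold above the highest wild-type ratio. The strain difference of 2.85 ± 0.29 (SE, n = 2 arrays per strain) ranked 1 of all 4771 genes, with an adjusted p of 0.254 by limma. With 1 array left out it ran from 2.58 to 3.13.

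For mug8 the ratio was 0.61 and 0.64 in wild-type cells and 3.11 and 2.78 in the mutant. It rose in both strains, by 1.54-fold in the wild type (adjusted p = 0.0486, limma) and 7.69-fold in mmi1-ts3 (adjusted p = 0.000764), which was the highest response among the 9. The gap between the closest arrays of the strains was 4.41-fold, and the strain difference of 2.32 ± 0.25 ranked 3 (adjusted p = 0.254). The wild-type call was close to its threshold and was lost without any 1 of the 4 arrays (adjusted p from 0.0749 to 0.185).

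For mug45 the ratio was −0.83 and −1.12 in wild-type cells and 0.83 and 0.63 in the mutant. This was the one DSR transcript that fell in the wild type, to 0.509-fold of its 25 °C level (adjusted p = 0.0143, limma), and it rose 1.66-fold in mmi1-ts3 (adjusted p = 0.0274). All 4 arrays thus placed it on opposite sides of 0 in the 2 strains. The closest arrays were 2.74-fold apart and the strain difference was 1.70 ± 0.25, rank 10 (adjusted p = 0.551). The wild-type call was lost without wild-type replicate 2 (adjusted p = 0.0915), and the mmi1-ts3 call without mmi1-ts3 replicate 1 (0.236) or 2 (0.119).

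These were 3 of the 9 genes on the array (0.189%) whose mmi1-ts3 arrays both lay at least 2-fold above both wild-type arrays. The other 6 were crs1, rec8, tht2, bqt1, nc-pho1 and dbp2. Within the uncoded array set mug9, mug8 and mug45 ranked 3, 5 and 23 by strain difference, and within the coded set 2, 8 and 13. Spots near each other in the table shifted together on some arrays: around mug45 the median of the spots was 0.45 lower on wild-type replicate 2 than on replicate 1, and around mug9 0.41 lower. When each spot was centred on the spots around it (25 on either side, an alternative chosen after the data were seen), mug9 (2.85, adjusted p = 0.0363), mug8 (2.32, adjusted p = 0.0415) and mug45 (1.97, adjusted p = 0.0495) passed the test, along with crs1 and rec8 and no other gene (0.105% called higher).

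Spo5 is an RNA-binding protein needed for progression through the meiotic divisions and for spore formation. Its ratio was 0.09 and 0.26 in wild-type cells and 1.24 and 1.13 in the mutant. Both strains repeated closely, with an SD of 0.12 (wild type) and 0.08 (mmi1-ts3), and the groups did not overlap. The rise in mmi1-ts3 was 2.27-fold (adjusted p = 0.00515, limma). The strain difference of 1.01 ± 0.23 ranked 30 by size and 15 by p (adjusted p = 0.998), with a 95% interval of 0.42 to 1.59 from the fit.

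Ssm4 is a dynactin subunit of the p150-Glued type that acts with dynein in the back-and-forth movement of the horsetail nucleus during meiotic prophase. Its ratio was −0.28 and 0.73 in wild-type cells and 1.89 and 0.64 in the mutant. Only mmi1-ts3 replicate 1 stood above the rest; replicate 2 lay slightly below wild-type replicate 2. The strain difference was 2.17 in the uncoded array set and −0.09 in the coded set, or 1.04 ± 0.53 in the fit (adjusted p = 0.998, 95% interval −0.29 to 2.37). The rise in mmi1-ts3 (2.40-fold) passed narrowly (adjusted p = 0.0497, limma) and did not pass under 5 other settings, such as the array set as a block (0.0584), or without mmi1-ts3 replicate 1 (log2 0.64, adjusted p = 0.295). With 1 array left out the strain difference ran from 0.41 (without mmi1-ts3 replicate 1) to 1.67 (without replicate 2).

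For mug10 the ratio was −0.06 and 0.37 in wild-type cells and 1.18 and 0.68 in the mutant. The groups were separate, but the difference was 1.24 in the uncoded array set and 0.31 among the coded arrays. The rise in mmi1-ts3 was 1.91-fold (adjusted p = 0.0225, limma, and 0.206 without mmi1-ts3 replicate 1). The strain difference was 0.78 ± 0.30 (adjusted p = 0.998, 95% interval 0.03 to 1.53).

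Mei4 is the forkhead transcription factor that switches on the middle genes of meiosis, and its transcript is the classic DSR target. Its ratio was 0.38 and −0.10 in wild-type cells and 0.74 and 0.18 in the mutant. The strains overlapped, although within each array set mmi1-ts3 was the higher one, by 0.36 (uncoded) and 0.27 (coded). Neither strain's response passed the test (adjusted p = 0.673 for wild-type cells and 0.168 for the mutant, limma). The 95% interval of the strain difference (0.32 ± 0.32 SE) ran from −0.47 to 1.10, so these arrays leave room for a 2-fold higher response and for a lower one. With 1 array left out the difference ran from 0.036 (without mmi1-ts3 replicate 1) to 0.59 (without replicate 2).

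For mug4 the ratio was −0.11 and −0.47 in wild-type cells and −0.40 and 0.003 in the mutant. For mug5 it was −0.15 and 1.25 in wild-type cells and 0.61 and 0.22 in the mutant. Both overlapped between the strains, and the strain difference changed sign between the array sets: from −0.29 (uncoded) to 0.48 (coded) for mug4, and from 0.76 to −1.03 for mug5. Around the mug5 spot the median of the spots was 0.41 higher on wild-type replicate 2 than on replicate 1, and around ssm4 0.39 higher. With each spot centred on the spots around it the strain difference was −0.13 for mug5 and 1.06 for ssm4. The 95% intervals of the strain difference were −0.60 to 0.79 for mug4 and −1.36 to 1.09 for mug5, and neither gene's response passed in either strain with all arrays. Without wild-type replicate 1, the wild-type response of mug5 rested on the array at 1.25 and passed (adjusted p = 0.036, limma).

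**Figure D2:**
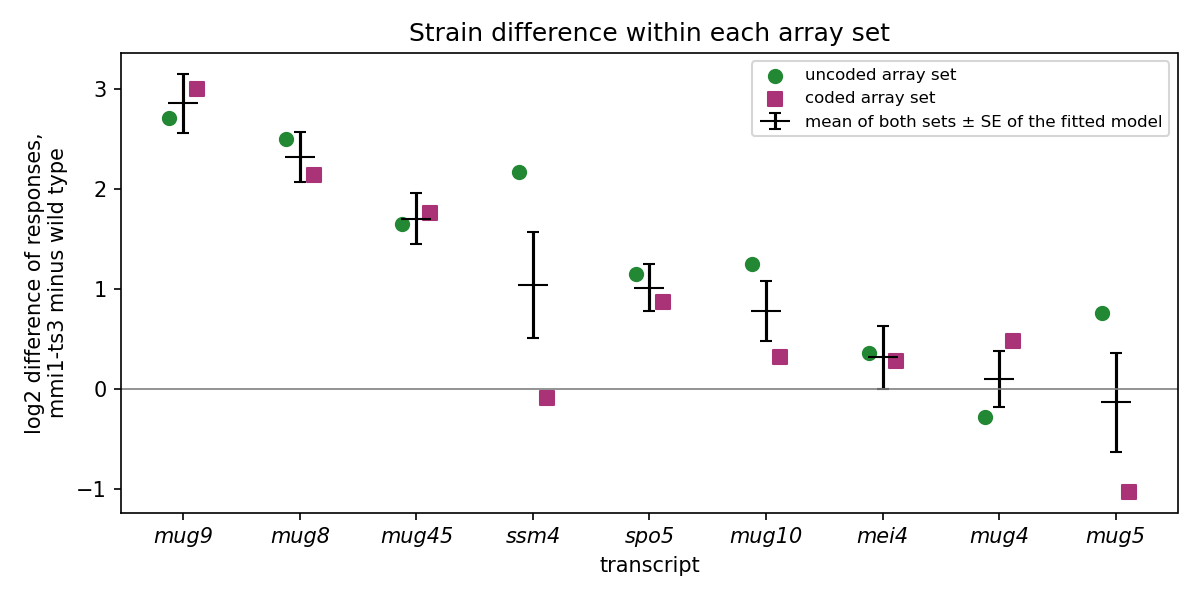
Strain difference (mmi1-ts3 minus wild type, log2) of each DSR transcript in the uncoded array set (circles) and the coded set (squares), with the mean and the SE of the fitted model in black. The sets lie within 0.4 of each other for mug9, mug8, mug45, spo5 and mei4, and on opposite sides of 0 for ssm4, mug4 and mug5.

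Taken as a list, the 9 had a median strain difference of 1.01, against −0.07 over all 4771 genes. Of the 9, 8 were positive (39.2% of all genes), 6 were positive in both array sets (18.4% of all genes) and 5 had arrays that did not overlap between the strains (9.31% of all genes), all higher, while 20.4% of all genes did not overlap on the lower side. At an unadjusted p under 0.05, 5 of the 9 were higher (1.03% of all genes) and 0 lower (0.859%). The list's median was 1.24 in the uncoded set and 0.48 among the coded arrays. With 1 array left out it ran from 0.53 (without mmi1-ts3 replicate 1) to 1.09, and was 0.56 without wild-type replicate 1.

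Counted strain by strain, 6 of 9 rose in mmi1-ts3, where 14.9% of all genes rose, and 0 fell, where 19.6% of all genes did. The list's median response was 0.93 in the mutant against 0.15 in wild-type cells. By array, the wild-type medians were −0.09 and 0.26 and those of the mutant 1.18 and 0.64. Without mmi1-ts3 replicate 1, 3 members rose (mug8, mug9 and spo5). These counts are set side by side; the test of the difference itself is the one above, which no gene passed.

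**Figure D3:**
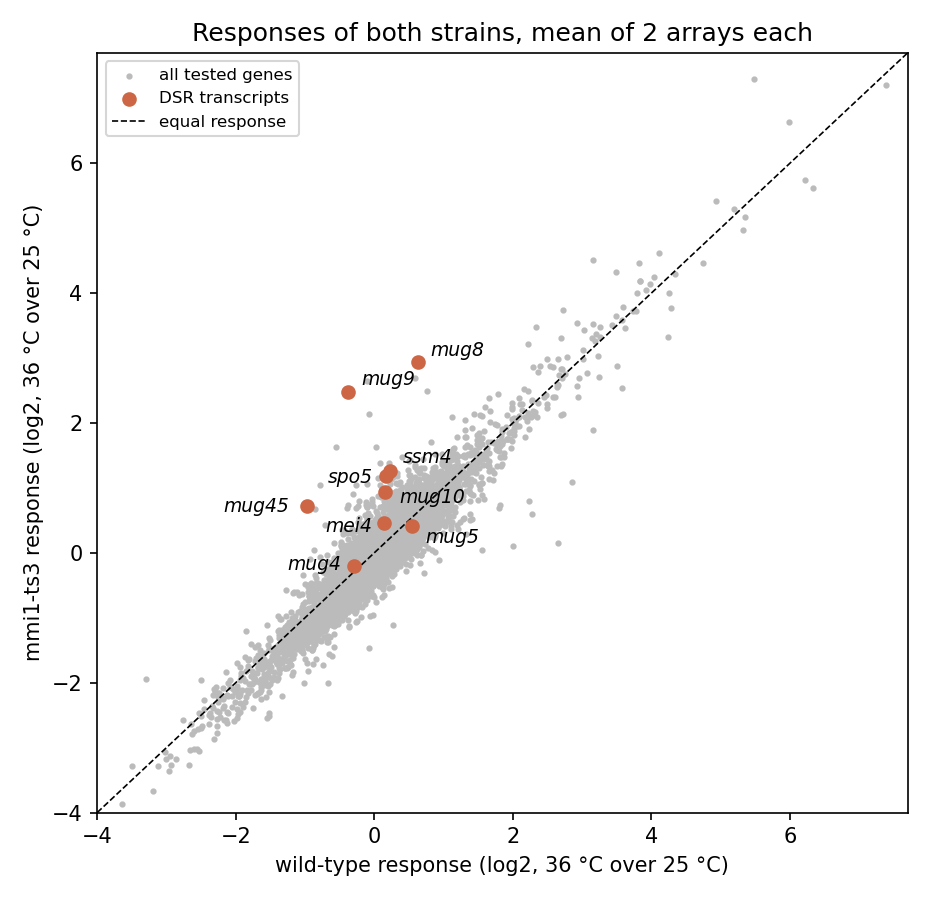
Mean response of every tested gene in the wild type (horizontal axis) and in mmi1-ts3 (vertical axis), both log2 of 36 °C over 25 °C, with the 9 DSR transcripts named. mug9, mug8 and mug45 lie above the diagonal and away from most other genes, though crs1 lies near mug9 and nc-pho1 near mug45. mug4 and mug5 lie close to the diagonal.

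A further 7 transcripts reported as Mmi1 targets were set beside these: rec8, crs1, rem1, rec10, mcp7, num1 and jnm1. Their median strain difference was 1.17, and 7 of 7 were positive (39.2% of all genes). The meiotic cyclin gene crs1 read −0.17 and −0.05 in wild-type cells and 2.99 and 2.31 in the mutant (difference 2.76 ± 0.31), and rec8, the meiotic cohesin subunit, −0.41 and 0.26 against 2.19 and 2.10 (2.22 ± 0.30). Of the 7, 5 rose in mmi1-ts3 on their own (rec8, crs1, rec10, num1 and jnm1), against 14.9% of all genes, and 0 in the wild type, against 13.5%. The differences of jnm1, a dynactin subunit, num1, which anchors dynein at the cortex, and rec10, a linear element protein, were 1.31 ± 0.29, 1.17 ± 0.52 and 1.16 ± 0.25. That of rem1, a meiotic cyclin, was 0.22 ± 0.33, and that of mcp7, a strand exchange factor, 0.70 ± 0.996, where wild-type replicate 2 alone read 3.05 and replicate 1 −0.18.

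Genes known to depend on Mei4, among them the mde (Mei4-dependent expression) genes, were centred near 0. Their median strain difference was −0.04 over 13 genes, with 6 positive and 7 negative. The largest were mde5 (0.72 ± 0.46), mde10 (0.42 ± 0.33), the meiotic septin genes spn7 (0.35 ± 0.37) and spn5 (−0.19 ± 0.24), and in mmi1-ts3 0 of 13 rose while mde1 and spn5 fell (responses of −0.78 and −0.58, adjusted p = 0.023 and 0.0497, limma), mde1 being named after its value was seen. In the wild type mde1 fell too (−0.66, adjusted p = 0.0446, limma), and mde7 rose (0.99, adjusted p = 0.0499), also named after its value was seen. Over all genes 14.9% rose and 19.6% fell in mmi1-ts3, against 13.5% and 14.5% in the wild type.

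Dynein and dynactin genes, the partners of ssm4, had a median strain difference of 0.75 over 10 measured genes, 3 of which (ssm4, num1 and jnm1) are themselves reported Mmi1 targets. Besides these, dli1, a dynein light intermediate chain, read 0.23 and 0.58 in wild-type cells and 2.42 and 0.54 in the mutant (1.08 ± 0.62), and arp1, the dynactin filament protein, −0.61 and 0.99 against 1.39 and 1.11 (1.06 ± 0.54). As for ssm4, the difference sat mainly in the uncoded set, where the list's median was 1.07, against 0.04 in the coded set. The 7 genes that are not reported targets had a median of 0.06. In mmi1-ts3 ssm4, num1, jnm1 and dli1 rose, and in the wild type dlc1 alone rose. The gene hrs1 fell in mmi1-ts3 (response of −0.57). It entered the list by its current symbol, is separate from mcp6 and is not a dynein or dynactin gene. The list's medians include it. Both hrs1 and dlc1 are named after their values were seen. Of all genes, 14.9% rose and 19.6% fell in mmi1-ts3, and 13.5% rose in the wild type.

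Genes of the elimination machinery gave a median strain difference of 0.05 over 12 measured genes. The largest were mei2, the meiotic RNA-binding protein that sequesters Mmi1 (0.95 ± 0.40), mtl1, the helicase of the Red1 complex (−0.77 ± 0.25), pab2, a nuclear poly(A)-binding protein (−0.49 ± 0.26) and rmn1 (0.44 ± 0.30). The difference of mei2 was 0.25 in the uncoded array set and 1.65 in the coded set. In mmi1-ts3, 1 of the 12 rose (red5, 0.93, adjusted p = 0.0246, limma), named after its value was seen, and 3 fell. Over all genes 14.9% rose and 19.6% fell there. Those that fell were mtl1, pab2 and rmn1 (adjusted p = 0.0067, 0.00868 and 0.0131, limma). In the wild type 0 rose (13.5% of all genes) and rmn1 alone fell (14.5% of all genes). Its fall was larger than in mmi1-ts3 (responses of −1.55, adjusted p = 0.0058, limma, and −1.11).

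For markers of mating and meiotic entry the median strain difference was 0.20 over 15 measured genes. Of these, ste11, the transcription factor of sexual differentiation, alone rose, and it did so in both strains, by 0.96 in wild-type cells and 1.08 in the mutant (adjusted p = 0.0119 and 0.00653, limma); it is named after its values were seen. The largest strain differences were those of the pheromone gene mfm1 (1.09 ± 0.53), mei2 (0.95 ± 0.40), rep1, a regulator of premeiotic S-phase genes (0.60 ± 0.36), and mat1-Mi (0.33 ± 0.27). Each sat mainly in a single array set. For mfm1 and mei2 it was the coded set (2.11 and 1.65, against 0.065 and 0.25 uncoded). For rep1 and mat1-Mi it was the uncoded set (1.185 and 0.66, against 0.006 and 0.009 coded). The list's median by array was −0.12 and 0.16 in wild-type cells and 0.25 and 0.32 in the mutant. In cultures like these, a few cells with much of a transcript and many cells with a little cannot be told apart, and the part of mating or meiotic cells in the values of the 9 was not tested. Heat shock markers differed by a median of 0.07, with hsp9 at −0.71 ± 0.36, hsp78 at 0.50 ± 0.31, hsp90 at 0.37 ± 0.27 and psi1 at 0.36 ± 0.31. Of these markers, 13 of 15 rose in the wild type and 14 of 15 in mmi1-ts3, against 13.5% and 14.9% of all genes.

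The protein-coding genes directly beside the 9 on the chromosome, by the RefSeq annotation, lay mostly below 0. Of 18 neighbours 16 were measured, with a median strain difference of −0.24, and 14 of the 16 were negative. Most genes on the array also lay below 0: 2900 of all 4771 were negative, with a median of −0.07. The extremes were pcf1 beside spo5 (−0.70 ± 0.43), SPCC70.10 beside mug9 (−0.51 ± 0.24) and cyp1 beside mug10 (0.45 ± 0.29), the last named after its value was seen. For 6 of the 9 members the annotated gene overlaps a coding neighbour and for 5 of the 9 an annotated long non-coding RNA, and the sources used here do not say whether the spots tell the strands apart.

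**Figure D4:**
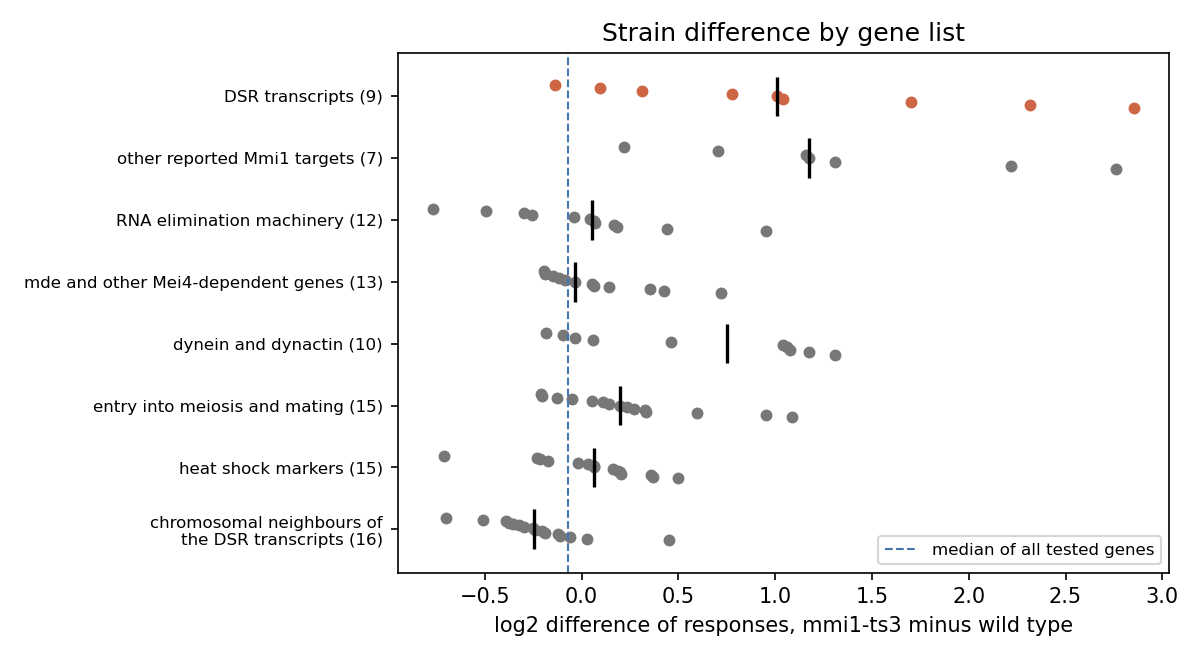
Strain difference (mmi1-ts3 minus wild type, log2) of each measured gene by list, with the number of genes in brackets, the median of each list as a black bar and the median of all tested genes as a dashed line. The lists of DSR transcripts and of other reported targets have medians of 1.01 and 1.17. The chromosomal neighbours of the DSR transcripts lie mostly below 0, as do most of all tested genes.

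By the Euclidean distance of the 4 array values, the gene nearest to mug9 was crs1 (distance 0.71, log2) and crs1 was also nearest to mug8 (1.15); no gene came within 0.5 of either. The nearest to ssm4 was num1 (0.25), with values of −0.17 and 0.59 in wild-type cells and 2.06 and 0.70 in the mutant, and the nearest to mug45 was the non-coding RNA nc-pho1 (0.46). For spo5 it was ubc12 (0.33), for mug10 ubp5 (0.16) and for mug5 meu31 (0.08). The profiles of mei4 and mug4, nearest to acp1 (0.19) and rex2 (0.12), were common ones, with 145 and 261 genes within 0.5. With 4 arrays, such likeness describes the values and no more.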

How the data were processed

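Values came from 4 arrays with 2 channels each. Each deposited value is a ratio of the channels, read here as log2: the highest, 7.81, exceeds 4.82, the span of a 16-bit scanner in base 10, while a natural log is possible. The authors' normalization, background correction, spot filters and ratio direction are not given in the sources used here, and the dye of channel 1 is labelled both Cy5 and Cy3. Of 5188 spots, 4933 carry 1 gene; 4930 of these matched RefSeq (ASM294v3) by gene ID. Spots of a gene were averaged, and 4771 of 4880 genes had a value on all 4 arrays, each then centred on its median (wild type −0.10 and 0.07, mmi1-ts3 −0.002 and 0.10 subtracted).

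A mean per strain was fitted with limma 3.58.1 (R 4.3.3, eBayes, 2 residual and 3.56 prior degrees of freedom). The code was tried on simulated data with a smaller spread than these arrays have and no array-set effect. That trial checks the code and cannot show how well the fit performs on these arrays. Each strain's mean was tested against 0 and the strains against each other, two-sided, with Benjamini-Hochberg adjustment over all genes; "rose" and "fell" mean an adjusted p under 0.05. An exact permutation test of 2 against 2 arrays cannot go below p = 0.333. Nothing states that replicates came from separate cultures, so p-values may measure technical spread alone. Replicate numbers follow record order and coincide with the array sets; the labels name no pairing of cultures, so the set was used as a block only as an alternative. The number of arrays limits the precision.

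The members and lists were chosen with earlier results of these data known. The text names all 9 members, mmi1, the 7 other targets, up to 4 genes per list with the largest strain difference, the 2 neighbours with the largest, and the nearest profile of each member. Alternatives covered centring, scaling, variance model, gene filter, threshold, log base, the array set as a block and each array left out.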

Additional observations from a re-analysis of the deposited data

Results flagged for a closer look

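Of the genes named here, 5 had responses of opposite sign in the strains on every array: mug9 (strain difference 2.85), crs1 (2.76), mug45 (1.70), nc-pho1 (1.54) and mei2 (0.95). The difference of each was tested and did not pass over all genes (limma, adjusted p from 0.254 to 0.998). Some of these signs rest on values near 0. On wild-type replicate 1, mug9 and mei2 each read −0.09, and on wild-type replicate 2 crs1 read −0.05. On mmi1-ts3 replicate 1, mei2 read 0.17. Of the 5, only mug45 passed the test against 0 in both strains. Several were named for a large strain difference. The share of all genes with such signs is not given here, so the count does not mark out these genes.

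Of the DSR transcripts, 3 had strain differences of opposite sign in the array sets: ssm4 (2.17 uncoded, −0.09 coded), mug5 (0.76 and −1.03) and mug4 (−0.29 and 0.48). Such changes of sign were common on the array and do not mark out these 3. Of all 4771 genes, 1861 were positive in the uncoded set and 2070 in the coded set, but only 877 in both. With 1 array of each strain per set, the differences of the 3 between sets could not be tested.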

How the results depend on the processing

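Under the refitted settings, mug9, mug8, mug45, ssm4, spo5, mug10 and mei4 kept a positive strain difference. With local centring, 5 genes passed as higher in mmi1-ts3, 3 of them members, the wild-type rise of mug8 was lost (0 members, also with genes kept on 1 value per strain), and signs turned for mmi1 (−0.012 for the difference, −0.0055 in mmi1-ts3), spo5 in wild-type cells (−0.016) and mug4 in mmi1-ts3 (0.14); the cause was not tested. Read as natural logs, the members' medians became 1.45 for the difference and 1.35 for mmi1-ts3, by construction. With the array set as replicate block the smallest member adjusted p for the difference was 0.311 and the ssm4 rise was lost (0.0584).

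With 1 array left out, where a lone array is assumed to vary like the others, 0 to 2 genes and 0 to 1 member (mug9, 2.99, adjusted p = 0.0374 without mmi1-ts3 replicate 2) passed as higher. The members' median difference ran from 0.53 to 1.09, mug4 from −0.10 to 0.30, mug5 from −0.84 to 0.57 and mmi1 from −0.56 to 0.69. In wild-type cells, 353 to 680 genes rose and 296 to 666 fell, with 0 to 1 member each way. The members' median there ran from −0.094 to 0.26, mei4 from −0.10 to 0.38, ssm4 from −0.28 to 0.73, mug5 from −0.15 to 1.25, mug10 from −0.06 to 0.37 and mmi1 from −0.24 to 1.01. In mmi1-ts3, 367 to 819 genes rose and 514 to 974 fell, 3 to 6 members rose, and mug4 ran from −0.40 to 0.003. Spot brightness was not used here, so a limit by signal over background could not be given.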
